A study of Mus musculus with 11 samples.

Results

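The genes of antigen presentation by the major histocompatibility complex (MHC, named H2 in the mouse) were followed in bulk RNA sequencing of 11 mouse skin tumours taken at end point. Members were all rows of the deposited gene table whose mouse symbol begins with H2-, together with B2m, Tap1, Tap2, Tapbp, Tapbpl, Cd74, Ciita, Nlrc5, Psmb8, Psmb10, Psme1, Psme2, Erap1, Calr, Pdia3 and Canx. That rule took 47 of 18756 genes. Of these, 33 belong to class I and 12 to class II, where Ciita has 2 rows, and 2 (H2-Ke2 and H2-Ke6) are named for the region alone and encode a prefoldin subunit and a steroid dehydrogenase. Psmb9 and H2-Ea are not analysed here. The tumours, all of strain C57BL/6, fell under 3 labels: 2 were GNA11 Q209L, 5 were GNA11 Q209L Bap1 KO, and the other 4 were BRAF V600E Bap1 KO. The GNA11 Q209L protein is a constantly active G protein alpha subunit, BRAF V600E a constantly active kinase, and Bap1 a nuclear deubiquitinase that acts as a tumour suppressor. Labels give neither the age and sex of the animals nor the promoter behind the recombinase, and do not say that libraries came from separate animals. GNA11 Q209L Bap1 KO replicates 1 and 2 carry the same identifier. P-values therefore measure the spread between libraries, which may be partly technical.

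Class I molecules display peptides from inside the cell to CD8 T cells on almost all nucleated cells. The proteasome cuts the peptides, and the Tap1 and Tap2 transporter carries them into the endoplasmic reticulum. There tapasin, calreticulin and Pdia3 load them onto a heavy chain paired with B2m. Nlrc5 drives transcription of genes such as the heavy chains and B2m. Class II molecules display peptides taken up from outside to CD4 T cells, mainly on dendritic cells, macrophages and B cells, and in the skin on Langerhans cells. Their chains are escorted by the invariant chain Cd74, edited by H2-DM and H2-DO, and switched on by Ciita, which other cells can also make under interferon gamma.

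Levels are CPM, the usual count per library size unit of RNA sequencing, on library sizes scaled by the trimmed mean of M-values (TMM). Total gene counts ran from 18338082 to 81035135 per library, so 3 counts correspond to 0.037 to 0.164 CPM. The gene-level count of Bap1 did not mark the knockout label, with 85.1 and 137 CPM in GNA11 Q209L, 102 to 170 CPM with GNA11 Q209L Bap1 KO, then 54.7 to 71.3 CPM in BRAF V600E Bap1 KO. The human GNA11-Q209L transgene stood at 20.8 and 109 CPM, at 6.53 to 16.4 CPM and at 0 to 0.0617 CPM in the same order, as CPM of the total gene count. Summed markers of melanocytes reached 66754 to 99738 CPM in the 7 libraries with GNA11 Q209L against 50.3 to 654 CPM in BRAF V600E Bap1 KO, whose tumours thus carried little of the defining pigment cell RNA. Closing lines of the deposited table list the Bap1 status of BRAF V600E Bap1 KO replicates 2 and 4 as NA, while its opening lines list it as BAP1 F/F, so results were also computed without these 2 libraries. BRAF V600E Bap1 KO replicate 4 held 174756 CPM of salivary gland genes.

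Of 46 member symbols 33 matched a promoter in the RefSeq table for GRCm38.p6, and 34 of the 46 member genes found in GENCODE M21 lie on chromosome 17. The counts themselves were made on mm9, so these positions describe the genes and were not used for counting. Stretches of 250 bases upstream of the start site are shown for both classical class I heavy chains. A class II alpha and a class II beta chain are set beside them. Any part of promoter motifs in the levels below was not tested. Capitals mark GGGATTCCC (a kappa B element), GAANNGAAA (an interferon regulatory factor element), AGNAACNG (an X box core) and ATTGG (a Y box core), each searched on both strands. None of the 4 motifs is contained in another. Windows lie at chr17:34000348-34000597 on the minus strand for H2-K1 (1 of its 2 listed start sites), chr17:35262844-35263093 on the plus strand for H2-D1, chr17:34287824-34288073 on the minus strand for H2-Aa and chr17:34305617-34305866 on the plus strand for H2-Eb1.
H2-K1: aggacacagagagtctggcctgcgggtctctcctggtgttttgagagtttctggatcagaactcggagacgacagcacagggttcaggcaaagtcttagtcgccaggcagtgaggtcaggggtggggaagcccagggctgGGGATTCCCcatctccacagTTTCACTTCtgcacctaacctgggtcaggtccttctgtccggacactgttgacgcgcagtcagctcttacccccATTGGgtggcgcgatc
H2-D1: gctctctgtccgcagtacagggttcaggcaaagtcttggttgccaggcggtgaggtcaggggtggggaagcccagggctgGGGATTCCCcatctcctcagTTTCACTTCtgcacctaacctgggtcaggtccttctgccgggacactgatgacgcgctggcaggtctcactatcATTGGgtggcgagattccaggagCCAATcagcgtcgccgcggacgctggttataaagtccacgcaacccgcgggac
H2-Aa: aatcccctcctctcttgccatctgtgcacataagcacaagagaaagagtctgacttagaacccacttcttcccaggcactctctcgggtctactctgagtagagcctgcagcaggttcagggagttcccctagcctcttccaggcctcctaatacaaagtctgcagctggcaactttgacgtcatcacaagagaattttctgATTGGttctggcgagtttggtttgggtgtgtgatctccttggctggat
H2-Eb1: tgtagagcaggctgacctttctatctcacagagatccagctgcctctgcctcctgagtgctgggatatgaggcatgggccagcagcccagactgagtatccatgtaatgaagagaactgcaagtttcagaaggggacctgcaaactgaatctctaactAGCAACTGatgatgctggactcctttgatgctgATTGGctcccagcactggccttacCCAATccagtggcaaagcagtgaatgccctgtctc

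H2-K1 and H2-D1 shared an unbroken run of 47 bases that holds the kappa B element, whereas neither shared a run of more than 8 bases with H2-Aa or H2-Eb1. GAANNGAAA was found in 8 of 24 class I members with a promoter (H2-D1, H2-K1, H2-M2, H2-M3, H2-Q4, H2-Q6, H2-Q7 and H2-Q10) and in 0 of 8 class II members, against 6.31% of all 32851 promoters. GGGATTCCC was found in H2-D1, H2-K1, H2-Q6 and H2-Q7 and in 0.301% of all promoters. AGNAACNG occurred in 1 class I member (Psmb8), in 3 class II members (H2-DMb1, H2-Eb1 and H2-Eb2) and in 14.5% of all promoters. ATTGG occurred in 17 of 24 class I and 8 of 8 class II members, against 33.8% of all. A match describes letters in this window and does not show a bound site. Nor does a missing match to these exact letters show that such an element is absent.

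Levels of different genes were compared per kilobase of exon. In GNA11 Q209L Bap1 KO the class I light chain B2m reached 1012 to 1933 CPM per kilobase, H2-D1 310 to 593, H2-K1 134 to 267 and the loading chaperone Calr 512 to 776. Cd74 was the most abundant class II member in all 11 libraries and stood there at 11.5 to 150 CPM per kilobase, with H2-Eb1 at 2.82 to 43.0. In BRAF V600E Bap1 KO replicate 2 Cd74 reached 741 CPM per kilobase, above H2-K1 at 479. The regulators stood far lower, with Nlrc5 at 0.739 to 2.68 and Ciita at 0.0471 to 0.325 CPM per kilobase in GNA11 Q209L Bap1 KO. Over the 11 libraries the summed class II CPM was 0.00926 to 0.457 of the summed class I CPM. That share was highest in BRAF V600E Bap1 KO replicates 2, 3 and 4 (0.431, 0.298 and 0.457) and at most 0.122 in the other 8 libraries.

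Class II varied far more between tumours of the same genotype than class I. Among the members above 0 in all libraries of a genotype, the median ratio of the highest to the lowest library was 14.6, 9.84 and 11.8 for class II in tumours of GNA11 Q209L, of GNA11 Q209L Bap1 KO, then of BRAF V600E Bap1 KO. For class I it was 1.96, 2.20 and 4.81 in that order. The 11 class II members tested also kept a shared order of libraries. All 11 were higher in GNA11 Q209L replicate 1 than in replicate 2, 9 of 11 were highest in replicate 2 within the GNA11 Q209L Bap1 KO label, and 10 of 11 were lowest in replicate 1 among the BRAF V600E Bap1 KO libraries. Class I members were less uniform, but 29 of 31 were higher in GNA11 Q209L replicate 1 than in replicate 2, and 23 of 31 were highest in replicate 2 of BRAF V600E Bap1 KO.

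**Figure D1:**
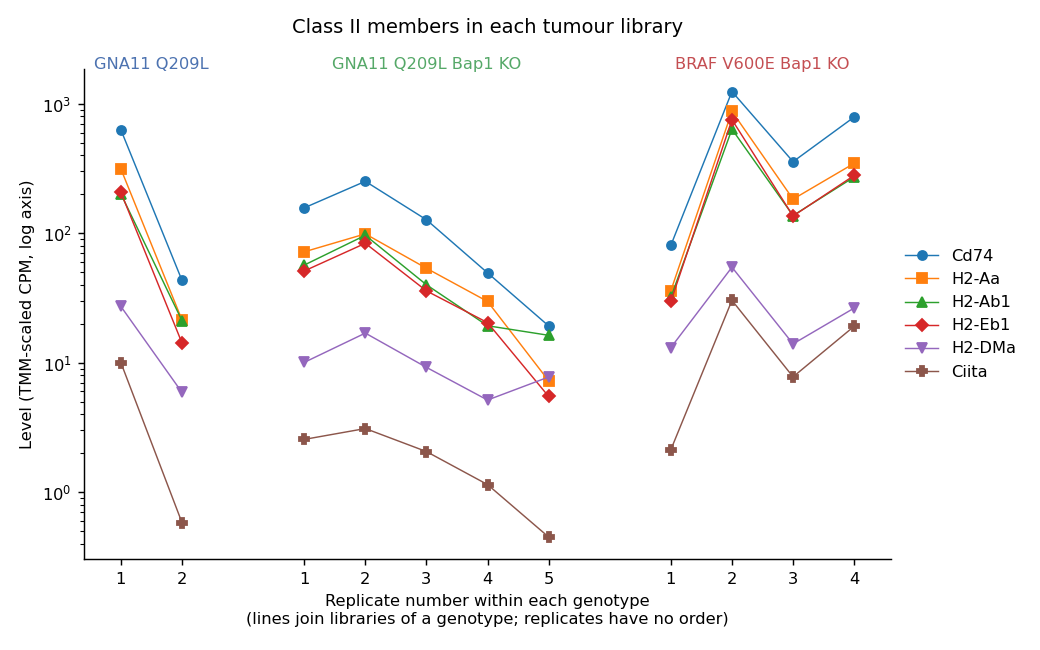
Levels of 6 class II members in each of the 11 libraries, on a log axis of TMM-scaled CPM, with the replicates of each genotype joined by a line only to follow a gene. Of the GNA11 Q209L libraries, replicate 1 was the higher for all 6 genes. Replicate 1 was the lowest BRAF V600E Bap1 KO library for each gene, narrowly so for H2-DMa (13.1 CPM, with 14.0 CPM in replicate 3). The lowest GNA11 Q209L Bap1 KO library was replicate 5, or replicate 4 for H2-DMa.

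Between the genotypes labelled Bap1 KO, which differ in oncogene, class II transcripts were lower in the GNA11 Q209L tumours. Of 11 class II members tested, 6 were called lower and 0 higher in GNA11 Q209L Bap1 KO (edgeR's quasi-likelihood test, adjusted p under 0.05), where 24.7% of all 17350 genes tested were called lower and 16.5% higher. All 11 fitted differences were negative, with a median log2 fold change of -2.56, while the median of all genes tested was -0.26. The called members were the chains H2-Aa, H2-Ab1 and H2-Eb1, the editors H2-DMb2 and H2-Ob, and the regulator Ciita. These calls rest on few libraries: 1 class II member was called without GNA11 Q209L Bap1 KO replicate 3 or 5, 2 without its replicate 1 or 4 or without BRAF V600E Bap1 KO replicate 2 or 4, and 0 without both of the latter, where the class II median was -1.05. With GNA11 Q209L Bap1 KO replicates 1 and 2, which share an identifier, summed into 1 library, the calls of H2-Aa, H2-Ab1, H2-Eb1 and H2-Ob were lost, leaving 2 class II members called, Ciita and H2-DMb2.

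H2-Aa, the alpha chain of the I-A molecule, stood at 71.8, 98.9, 53.6, 29.7 and 7.24 CPM in GNA11 Q209L Bap1 KO replicates 1 to 5 and at 36.0, 874, 183 and 347 CPM in BRAF V600E Bap1 KO replicates 1 to 4. The groups overlapped, because replicate 1 of BRAF V600E Bap1 KO lay among the GNA11 Q209L Bap1 KO libraries, while its other 3 lay above them all. H2-Aa was 6.89-fold lower, with a log2 difference of -2.79 ± 0.99 (± gives the SE throughout) and an adjusted p of 0.0434 with edgeR. Its partner chain H2-Ab1 stood at 56.7, 96.4, 39.98, 19.3 and 16.3 CPM against 31.9, 637, 137 and 272 CPM, with the same library apart from its group (-2.56 ± 0.88, adjusted p = 0.0382 with edgeR). H2-Eb1, the I-E beta chain, stood at 51.1, 83.6, 35.9, 20.4 and 5.48 CPM against 29.7, 754, 136 and 280 CPM (-2.93 ± 1.02, adjusted p = 0.0398 with edgeR). The second E beta gene, H2-Eb2, stayed at or below 0.652 CPM in both genotypes and was not called. Leaving out BRAF V600E Bap1 KO replicate 2 or 4, or GNA11 Q209L Bap1 KO replicate 1, 3, 4 or 5, ended each of these 3 calls, with adjusted p-values up to 0.149 with edgeR, and the call of H2-Aa also ended without replicate 2 of the latter.

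Cd74, the invariant chain that guides class II to the endosome, stood at 157, 252, 127, 49.4 and 19.2 CPM under GNA11 Q209L Bap1 KO, and at 80.6, 1244, 357 and 791 CPM in BRAF V600E Bap1 KO. It showed the pattern of the chains but did not pass (-2.35 ± 0.94, adjusted p = 0.0658 with edgeR). H2-DMa, part of the editor that swaps peptides, stood at 10.04, 16.9, 9.20, 5.14 and 7.74 CPM against 13.1, 54.6, 14.0 and 26.4 CPM. Its groups overlapped and it did not pass either (-1.46 ± 0.56, adjusted p = 0.0570 with edgeR). Its partner H2-DMb1 had a difference of -1.76 ± 0.73 (adjusted p = 0.0740 with edgeR). H2-DMb2, the second beta chain of that editor, stood at 0.543, 0.664, 0.162, 0.333 and 0.0519 CPM against 1.08, 2.76, 2.47 and 5.47 CPM. Among the class II members tested it alone had groups that did not overlap. It was 8.39-fold lower in GNA11 Q209L Bap1 KO (-3.09 ± 0.86, adjusted p = 0.0175 with edgeR), on low counts of 3 to 12 per library in that genotype, and 24.8% of its 50-base words also occur in another gene, mostly H2-DMb1. Reads could therefore be split between the pair.

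H2-DO restrains the H2-DM editor. Its beta chain H2-Ob stood at 0.326, 0.111, 0.216, 0.381 and 0.277 CPM against 0.360, 1.43, 1.25 and 4.24 CPM, so that 1 BRAF V600E Bap1 KO library fell inside the GNA11 Q209L Bap1 KO range (-2.76 ± 0.90, adjusted p = 0.0308 with edgeR). That call was lost without BRAF V600E Bap1 KO replicate 4 or GNA11 Q209L Bap1 KO replicate 1, 2, 3 or 5. The alpha chain H2-Oa reached at most 1.79 CPM in these genotypes and was not called (-1.55 ± 1.17, adjusted p = 0.305 with edgeR). Ciita, the class II transactivator, stood at 2.55, 3.10, 2.06, 1.14 and 0.449 CPM against 2.12, 30.3, 7.77 and 19.1 CPM. Replicate 1 of BRAF V600E Bap1 KO again lay inside the other group, and the difference passed (7.97-fold lower, adjusted p = 0.0249 with edgeR), though not without BRAF V600E Bap1 KO replicate 2 or GNA11 Q209L Bap1 KO replicate 3, 4 or 5. A second Ciita row held 0 counts in all 5 GNA11 Q209L Bap1 KO libraries and 2, 7, 3 and 15 in BRAF V600E Bap1 KO, and was not tested.

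**Figure D2:**
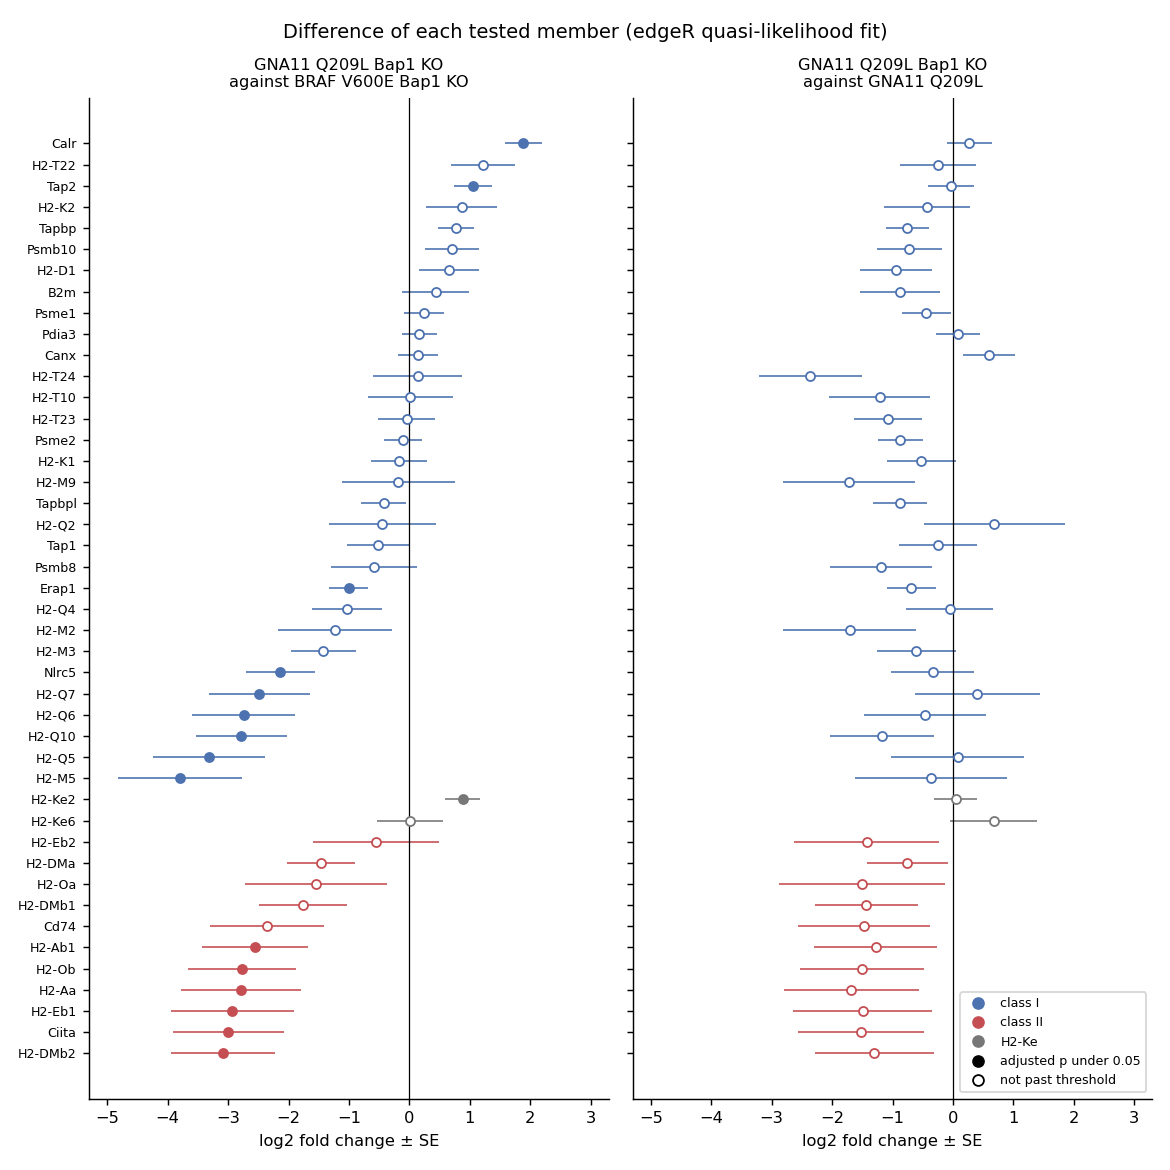
Log2 fold change with its SE for the 44 members tested, GNA11 Q209L Bap1 KO against BRAF V600E Bap1 KO on the left and against GNA11 Q209L on the right, coloured by class and filled where the adjusted p was under 0.05. Class II members lay at -0.55 to -3.09 on the left with 6 filled, and no member was filled on the right.

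Class I moved both ways in the same comparison. Of 31 class I members tested, 2 were called higher (Calr and Tap2) and 7 lower in GNA11 Q209L Bap1 KO, and the median log2 fold change was -0.17. Over both classes and the H2-Ke genes 16 of 44 members were called (36.4%), where 41.2% of all genes were, so the share over all members was near the background. Groups did not overlap for 5 of 44 members (11.4%), against 31.8% of all genes: Calr and H2-Ke2 were higher, and Nlrc5, Erap1 and H2-DMb2 lower.

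The class I heavy chains and their light chain did not separate the genotypes. H2-K1 stood at 395, 783, 605, 457 and 584 CPM under GNA11 Q209L Bap1 KO, and at 313, 1408, 290 and 531 CPM in BRAF V600E Bap1 KO. H2-D1 stood at 884, 1529, 1314, 798 and 835 CPM against 417, 1376, 398 and 537 CPM. B2m stood at 1021, 1621, 1662, 1597 and 870 CPM against 597, 2385, 344 and 682 CPM. All 3 groups of values overlapped, with BRAF V600E Bap1 KO replicate 2 far above the other 3 libraries of its genotype. The differences were -0.17 ± 0.47 for H2-K1, 0.65 ± 0.50 for H2-D1 and 0.43 ± 0.55 for B2m, with adjusted p-values of 0.787, 0.307 and 0.545 with edgeR. Without that library H2-K1 stood at 0.57 (adjusted p = 0.202 with edgeR), the other direction.

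Calr, the lectin chaperone that holds the heavy chain for loading, was the clearest rise. It stood at 1473, 1805, 2129, 1504 and 2234 CPM under GNA11 Q209L Bap1 KO, and at 658, 332, 452 and 545 CPM in BRAF V600E Bap1 KO, with no overlap. It was 3.68-fold higher (1.88 ± 0.31, adjusted p = 0.00181 with edgeR) and stayed called in 18 of 18 alternative analyses. Its relative Canx (425, 291, 481, 789 and 453 against 662, 345, 382 and 374 CPM) and the oxidoreductase Pdia3 (383 to 838 against 455 to 703 CPM) overlapped between genotypes and were not called. Tapbp, or tapasin, which bridges the heavy chain to the transporter, stood at 166, 298, 231, 135 and 256 CPM against 104, 184, 99.1 and 120 CPM (0.78 ± 0.30, adjusted p = 0.0566 with edgeR). Tapbpl, a tapasin-like editor, had overlapping groups (-0.43 ± 0.37, adjusted p = 0.374 with edgeR).

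The transporter subunits differed from one another. Tap2 stood at 46.0, 93.8, 58.2, 56.9 and 71.6 CPM against 16.2, 47.7, 33.8 and 28.2 CPM, with 1 pair of libraries overlapping narrowly. It was higher by 2.07-fold with GNA11 Q209L Bap1 KO (1.05 ± 0.32, adjusted p = 0.0229 with edgeR), and not called without BRAF V600E Bap1 KO replicate 4 (adjusted p = 0.0562). Tap1 stood at 40.2, 82.1, 55.1, 37.3 and 41.9 CPM against 20.5, 175, 44.2 and 54.1 CPM and did not pass (-0.52 ± 0.52, adjusted p = 0.445 with edgeR). Erap1, which trims peptides in the endoplasmic reticulum, stood at 22.7, 17.1, 26.3, 26.3 and 16.0 CPM against 33.2, 62.7, 39.4 and 39.1 CPM. Its groups did not overlap, and it was 2.01-fold lower in GNA11 Q209L Bap1 KO (-1.01 ± 0.33, adjusted p = 0.0321 with edgeR), a call kept in 12 of 18 alternatives and lost without BRAF V600E Bap1 KO replicate 2 or GNA11 Q209L Bap1 KO replicate 1, 2 or 5, or with its replicates 1 and 2 summed.

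The immunoproteasome subunits, which interferon gamma swaps into the proteasome, were not called. Psmb8 stood at 24.1, 57.1, 26.6, 12.6 and 18.7 CPM against 11.6, 118, 16.6 and 20.3 CPM (-0.59 ± 0.71, adjusted p = 0.523 with edgeR). Psmb10 stood at 40.1, 93.7, 40.5, 31.6 and 36.3 CPM against 14.4, 59.2, 25.6 and 19.8 CPM (0.70 ± 0.45, adjusted p = 0.224 with edgeR). In both genes the group ranges overlapped and 1 library of each genotype stood high, replicate 2 in either case. The proteasome activator subunits Psme1 (0.23 ± 0.33) and Psme2 (-0.11 ± 0.31) did not pass, and 28.3% of the 50-base words of Psme2 also occur in its copy Psme2b.

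Nlrc5, the class I transactivator, was lower in GNA11 Q209L Bap1 KO tumours. Its level was 22.3, 18.4, 22.7, 15.1 and 6.27 CPM against 57.4, 166, 27.0 and 47.9 CPM in BRAF V600E Bap1 KO. No GNA11 Q209L Bap1 KO library reached the lowest BRAF V600E Bap1 KO library. The difference was 4.39-fold (-2.14 ± 0.57, adjusted p = 0.0140 with edgeR), and the call was lost in 1 of 18 alternatives, that without BRAF V600E Bap1 KO replicates 2 and 4 (adjusted p = 0.110).

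Non-classical class I genes encode less variable molecules, several of which engage innate-like lymphocytes. Of 15 tested, 0 were called higher and 5 lower (33.3%, against 24.7% of all genes called lower), 4 of them among the 6 H2-Q genes. H2-Q10, which encodes a heavy chain secreted mainly by the liver, stood at 3.75, 2.82, 1.08, 1.57 and 1.49 CPM under GNA11 Q209L Bap1 KO, and at 31.5, 14.2, 11.7 and 1.36 CPM in BRAF V600E Bap1 KO. Replicate 4 of the latter lay inside the GNA11 Q209L Bap1 KO range (-2.78 ± 0.75, adjusted p = 0.0147 with edgeR). H2-Q5 stood at 1.30, 2.27, 1.08, 1.67 and 1.11 CPM against 3.63, 46.6, 1.88 and 7.04 CPM (-3.31 ± 0.92, adjusted p = 0.0171 with edgeR). Its highest value, in replicate 2, decided the call, which was lost without that library. H2-Q6 stood at 6.35, 12.3, 12.2, 12.8 and 14.3 CPM against 22.9, 236, 10.3 and 40.8 CPM (-2.74 ± 0.86, adjusted p = 0.0266 with edgeR). H2-Q7 stood at 8.47, 11.6, 15.0, 12.3 and 9.66 CPM against 16.6, 202, 6.9996 and 30.9 CPM (-2.49 ± 0.84, adjusted p = 0.0355 with edgeR). For both genes replicate 3 of BRAF V600E Bap1 KO fell inside or below the other group, and both calls were lost in 8 of 18 alternatives, among them those with the shared identifier summed, without BRAF V600E Bap1 KO replicate 2 and without any 1 of the 5 GNA11 Q209L Bap1 KO libraries. Among the 50-base words of H2-Q5, H2-Q6 and H2-Q7, 36.4%, 32.0% and 26.4% also occur in another gene, with another H2-Q gene as the largest partner, so their separate counts are uncertain.

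H2-M5 stood at 0.0543, 0.221, 0, 0.143 and 0.156 CPM against 0.0899, 0.682, 3.34 and 2.67 CPM. High values came from BRAF V600E Bap1 KO replicates 3 and 4, with 96 and 61 counts, while no GNA11 Q209L Bap1 KO library had more than 9. The difference passed (-3.80 ± 1.02, adjusted p = 0.0150 with edgeR) and stayed called in the 16 alternatives in which the gene was tested. Those 2 libraries also held the highest summed keratinocyte markers, 12281 and 3132 CPM, and the part of that in the result was not tested. H2-M3, which presents bacterial formylated peptides, stood at 4.18, 7.13, 8.98, 10.1 and 3.80 CPM against 8.86, 42.6, 9.12 and 13.0 CPM and did not pass (-1.43 ± 0.54, adjusted p = 0.0545 with edgeR). H2-T23, the Qa-1 molecule read by natural killer cell receptors, stood at 47.7, 85.8, 76.0, 61.5 and 42.3 CPM against 32.1, 137, 29.3 and 60.5 CPM, without a difference past the test (-0.05 ± 0.47, adjusted p = 0.942 with edgeR). The other H2-T genes were not called either, H2-T22 having the largest difference of them (1.21 ± 0.53, adjusted p = 0.0859 with edgeR), with 34.5% of its 50-base words shared, chiefly with H2-T10. H2-K2, H2-M2, H2-M9, H2-Q2 and H2-Q4 lay between -1.24 and 0.86 and were not called. H2-Bl and the pseudogene H2-M6-ps had too few counts to be tested.

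H2-Ke2, outside antigen presentation, stood at 36.5, 72.7, 34.4, 29.6 and 64.9 CPM against 27.8, 26.0, 26.8 and 22.8 CPM. Its groups did not overlap and it was called higher (0.88 ± 0.29, adjusted p = 0.0326 with edgeR), a call lost without GNA11 Q209L Bap1 KO replicate 2 or 5 or BRAF V600E Bap1 KO replicate 2, 3 or 4. H2-Ke6 reached at most 0.885 CPM.

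**Figure D3:**
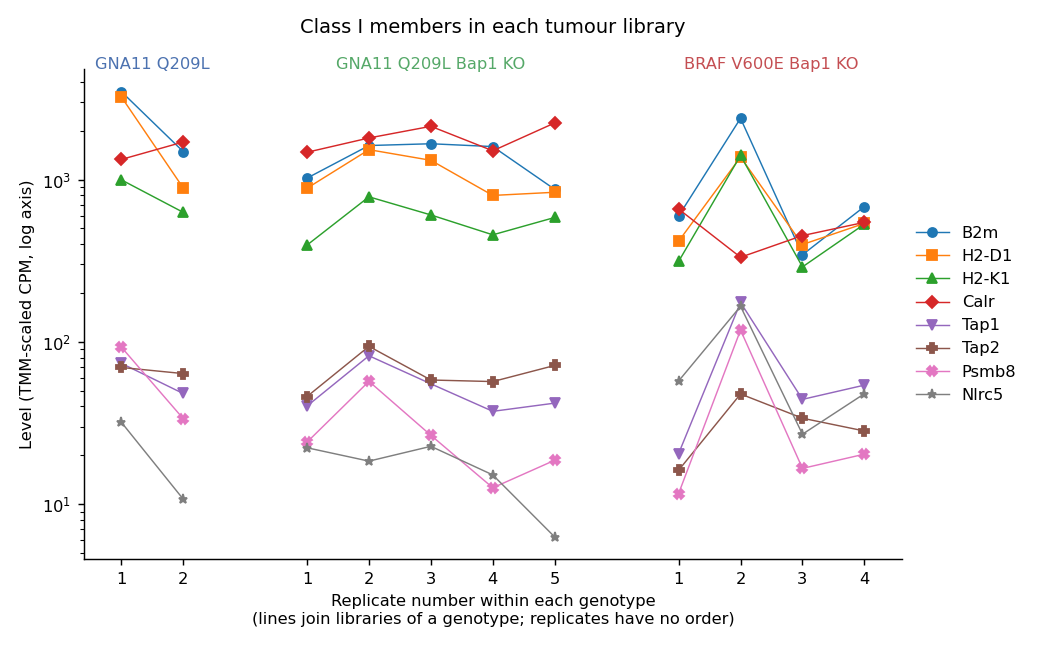
Levels of 8 class I members in each of the 11 libraries, on a log axis of TMM-scaled CPM, with replicates of a genotype joined by a line only to follow a gene. Calr was lower in all 4 BRAF V600E Bap1 KO libraries, while B2m, H2-D1, H2-K1, Tap1, Psmb8 and Nlrc5 peaked in their replicate 2.

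BRAF V600E Bap1 KO replicate 2 weighed on the class I result. Without it the class I median was 0.24 in place of -0.17. Over both classes and the H2-Ke genes 11 members were then called, 6 higher and 5 lower, in place of 16. Over all genes 6022 were called, in place of 7146. B2m (1.32, adjusted p = 0.0373), Tapbp (1.01, adjusted p = 0.0291) and Psmb10 (1.28, adjusted p = 0.0311) were then called higher with edgeR, which they were not over all libraries. Leaving out any other single library gave class I medians from -0.35 to -0.02. From 7 to 20 members of both classes and H2-Ke, and from 5448 to 7176 of all genes, were then called. Without both libraries of NA status 4 members were called, 3 higher and 1 lower, with a class I median of 0.79, and 3571 of all genes were called.

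Members were not called between tumours with and without the label Bap1 KO under the same oncogene. For GNA11 Q209L Bap1 KO set against GNA11 Q209L alone, edgeR called 0 of 44 members and DESeq2 also 0, while 0.0288% of all genes were called with edgeR. At an unadjusted p under 0.05 there were 2 members by each tool, and 1970 of all 17350 genes tested with edgeR. All 11 class II differences were negative, from -0.75 to -1.68 with a median of -1.48, and 25 of 31 class I differences were negative, with a median of -0.53. The median of all genes was 0.00. This direction depended on 1 library. Without GNA11 Q209L replicate 1 the medians were 1.40 for class II and 0.06 for class I, and without replicate 2 they were -2.31 and -0.94. Groups did not overlap for Tapbpl and Psme2 (2 of 44, 4.55%, against 16.6% of all genes).

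H2-Aa stood at 314 and 21.4 CPM in the 2 GNA11 Q209L libraries, Cd74 at 629 and 43.2 CPM and Ciita at 9.997 and 0.580 CPM. Replicate 1 lay above all 5 GNA11 Q209L Bap1 KO libraries for each gene, and replicate 2 lay within their range. Differences were -1.68 ± 1.12 for H2-Aa, -1.48 ± 1.09 for Cd74 and -1.52 ± 1.04 for Ciita, with adjusted p-values of 0.629, 0.665 and 0.640 with edgeR. H2-Ab1 (201 and 21.1 CPM), H2-Eb1 (207 and 14.2 CPM) and H2-DMa (27.2 and 5.89 CPM) split in the same way. Among class I genes H2-D1 stood at 3240 and 889 CPM, H2-K1 at 997 and 628 CPM and B2m at 3487 and 1488 CPM. These were higher in replicate 1 than in any GNA11 Q209L Bap1 KO library, and the differences of -0.95 ± 0.59, -0.53 ± 0.57 and -0.88 ± 0.66 did not pass. Psmb8 (93.0 and 33.7 CPM), H2-T23 (187 and 77.4 CPM) and Nlrc5 (32.0 and 10.7 CPM) did not pass either. Tapbpl, at 22.1 and 15.7 CPM against 8.40 to 11.3 CPM, and Psme2, at 52.0 and 37.2 CPM against 20.9 to 29.0 CPM, had lower GNA11 Q209L Bap1 KO groups throughout (adjusted p = 0.509 and 0.418 with edgeR). H2-T24 had the largest class I difference (-2.36 ± 0.85, adjusted p = 0.354 with edgeR), from 63.7 CPM in replicate 1 and 3.79 CPM in replicate 2 of GNA11 Q209L.

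GNA11 Q209L against BRAF V600E Bap1 KO, which differ in oncogene and label together and share libraries with the comparisons above, gave 2 of 44 members called (4.55%, against 15.2% of all genes). Calr at 1330 and 1704 CPM (1.61 ± 0.36, adjusted p = 0.0200 with edgeR) and Tapbp at 438 and 297 CPM (1.54 ± 0.36, adjusted p = 0.0243 with edgeR) were higher in GNA11 Q209L than in BRAF V600E Bap1 KO. Calr was not called without GNA11 Q209L replicate 2 or without the BRAF V600E Bap1 KO libraries of NA status, nor Tapbp without either GNA11 Q209L library. No member was called lower. With edgeR 12 of 44 members reached an unadjusted p under 0.05, as did 6331 of all 17350 genes tested. Of all genes 9.27% were called higher and 5.93% lower. Groups did not overlap for Calr, Tapbp, Tap2, Psmb10 and H2-Ke2 (11.4%, against 41.9% of all genes). DESeq2 called 8 members, 4 in each direction, where it called 5423 of all genes. Without BRAF V600E Bap1 KO replicate 2 edgeR called 8 members, all higher, where it called 1737 of all genes, against 2637 over all libraries. A fit of the 2 genotypes alone, or without GNA11 Q209L replicate 2, called 0 members. The class II median was -1.10, and -4.22 or -0.21 without GNA11 Q209L replicate 1 or 2.

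Markers of cells that carry class II, and of other cells, were set beside these values. In bulk tumours fewer cells of a type and less RNA per cell cannot be told apart. Of all genes tested 24.7% were called lower with GNA11 Q209L Bap1 KO than with BRAF V600E Bap1 KO. Of 13 macrophage and myeloid markers tested, 4 were called lower (30.8%, near that background) and 0 higher, and their summed level ran from 233 to 1226 CPM against 864 to 3457 CPM. Those called were Mrc1 (-5.05, adjusted p = 0.00336), Cd14 (-3.77, 0.00759), Aif1 (-3.60, 0.0261) and C1qa (-2.80, 0.0303) with edgeR. Of the 13 differences 12 were negative, with a median of -1.90. Only Cd68, a lysosomal protein of macrophages, had a difference in the other direction, which did not pass (1.66 ± 0.76, adjusted p = 0.100 with edgeR). Of 11 dendritic cell markers 5 were called lower (45.5%), but their summed levels overlapped, at 9.66 to 199 against 32.8 to 190 CPM with medians of 105 and 104 CPM. Epcam, among those called, was highest in BRAF V600E Bap1 KO replicates 3 and 4, at 25.3 and 105 CPM. Those libraries also held the highest summed keratinocyte markers, a link that was not tested. Itgax, the dendritic cell integrin CD11c, was the only dendritic cell marker with a positive difference (1.26 ± 1.14, adjusted p = 0.390 with edgeR). The other 10 were negative, and the median of the list was -2.20. In GNA11 Q209L Bap1 KO Itgax held 91.8, 94.2, 191, 1.86 and 36.4 CPM of sums of 105, 108, 199, 9.66 and 40.8 CPM. In BRAF V600E Bap1 KO it held 14.9, 104, 9.16 and 10.4 CPM of 32.8, 142, 65.9 and 190 CPM. The overlap of the sums thus rested largely on this gene. The Langerhans marker Cd207 had 0 counts in 4 of 5 GNA11 Q209L Bap1 KO libraries and stood at 1.65 to 9.03 CPM in BRAF V600E Bap1 KO. Of 11 T and NK cell markers 8 were called lower (72.7%), with sums of 7.52 to 18.9 against 19.6 to 105 CPM. Of 6 B cell markers 1 had enough counts to be tested and was called lower, with sums of 0.709 to 1.68 against 0.877 to 11.1 CPM, and the B cell gene Ms4a1 stayed at or below 0.784 CPM in all libraries. Of 6 fibroblast markers 6 were called lower, with sums of 286 to 2189 against 3081 to 18166 CPM. The part of these cells in the class II and class I differences was not tested.

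GNA11 Q209L replicate 1, the high class II library of its genotype, summed to 7431 CPM of macrophage markers, against 885 CPM in replicate 2. BRAF V600E Bap1 KO replicate 1 was the exception in its genotype, with 3071 CPM of macrophage markers beside 201 CPM of class II. Its ratio of class II to macrophage markers was 0.0656, while replicates 2 to 4 stood at 1.06, 0.986 and 0.938. The GNA11 Q209L Bap1 KO libraries stood at 0.229 to 0.460 and those of GNA11 Q209L at 0.192 and 0.128. Class II was thus lower per unit of macrophage markers in all 7 libraries with GNA11 Q209L than in 3 of the 4 BRAF V600E Bap1 KO libraries, and lowest in the remaining one. This order depended on the markers chosen. Over common leukocyte markers the lowest ratio was 0.293, in GNA11 Q209L replicate 2, against 0.381 in BRAF V600E Bap1 KO replicate 1. GNA11 Q209L Bap1 KO replicate 4 held 129 CPM of class II beside 9.66 CPM of dendritic cell markers. For BRAF V600E Bap1 KO replicate 4 these were 1767 and 190 CPM, a lower ratio. That GNA11 Q209L Bap1 KO library was an exception. Every other library with GNA11 Q209L had a lower ratio to dendritic cell markers than each BRAF V600E Bap1 KO library. The nearest were GNA11 Q209L Bap1 KO replicate 2, at 564 and 108 CPM, and BRAF V600E Bap1 KO replicate 1, at 201 and 32.8 CPM.

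**Figure D4:**
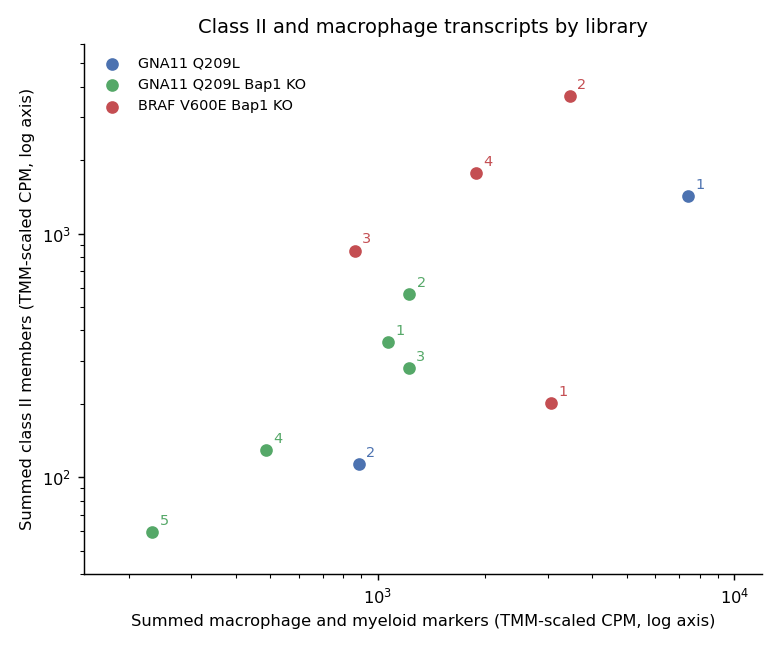
Summed class II members against summed macrophage and myeloid markers for the 11 libraries, both in TMM-scaled CPM on log axes, numbered by replicate. BRAF V600E Bap1 KO replicates 2 to 4 lie near a ratio of 1, their replicate 1 at 0.0656, and the 7 libraries with GNA11 Q209L between 0.128 and 0.460.

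Ratios within a library do not depend on its scaling. The class II chains kept nearly fixed proportions: Cd74 over H2-Aa ran from 1.42 to 2.65 and H2-Eb1 over H2-Aa from 0.659 to 0.863 over all 11 libraries, while H2-Aa itself spanned 7.24 to 874 CPM. H2-Ab1 over H2-Aa ran from 0.642 to 0.987 except in GNA11 Q209L Bap1 KO replicate 5, at 2.25, the library lowest in H2-Aa. Several class I ratios parted the genotypes labelled Bap1 KO. H2-D1 over H2-K1 ran from 1.43 to 2.24 under GNA11 Q209L Bap1 KO, against 0.978 to 1.37 under BRAF V600E Bap1 KO. Tap1 over Tap2 ran from 0.586 to 0.947 against 1.27 to 3.66. Nlrc5 over H2-K1 ran from 0.0107 to 0.0564 against 0.0902 to 0.183, and H2-Q6 plus H2-Q7 over H2-K1 from 0.0305 to 0.0551 against 0.0597 to 0.311. In each of these 4 ratios the groups did not overlap. They were among 14 ratios computed, are named with the values known, and carry no test. GNA11 Q209L stood at 3.25 and 1.41 for H2-D1 over H2-K1, on either side of the GNA11 Q209L Bap1 KO range, and at 0.0321 and 0.0171 for Nlrc5 over H2-K1, within it. The immunoproteasome Psmb8 over its standard counterpart Psmb5 was 4.90 in BRAF V600E Bap1 KO replicate 2 and 2.05 in GNA11 Q209L replicate 1, and 0.353 to 1.35 elsewhere.

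**Figure D5:**
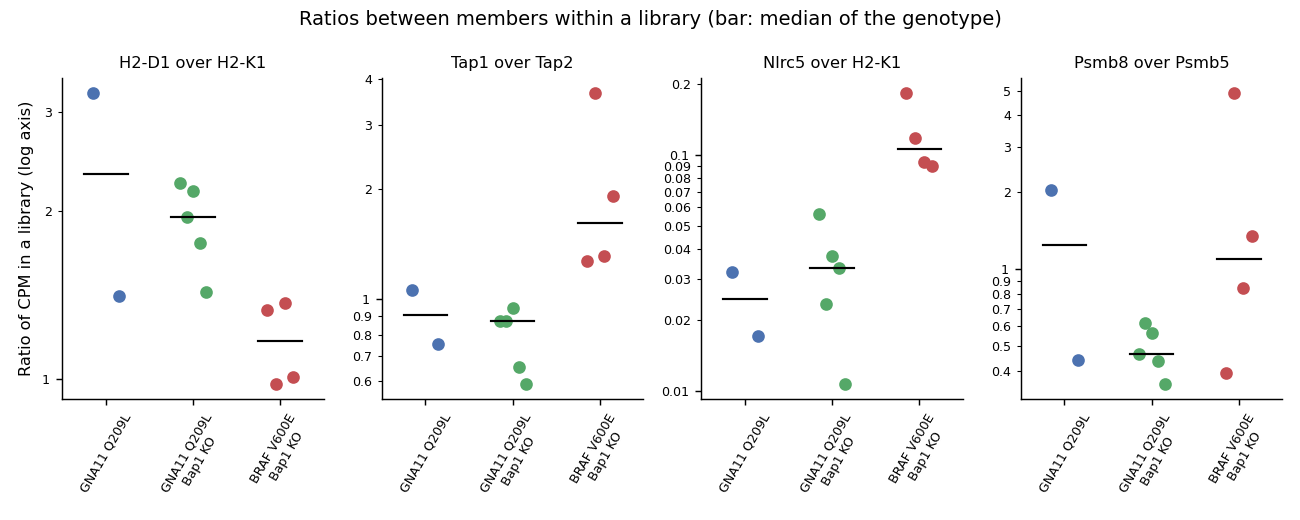
Ratios of CPM between members (and Psmb5) within each library, on log axes, by genotype with a bar at the median. H2-D1 over H2-K1 was lower and Tap1 over Tap2 and Nlrc5 over H2-K1 were higher in all 4 BRAF V600E Bap1 KO libraries than in the 5 of GNA11 Q209L Bap1 KO, while Psmb8 over Psmb5 overlapped.

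Other genes of the pathways, outside the members, were read from lists for GNA11 Q209L Bap1 KO against BRAF V600E Bap1 KO. In this comparison 16.5% of all genes were called higher and 24.7% lower, 41.2% in all. Of 5 standard proteasome and activator genes, 3 were called higher and 1 lower. Psmb5 (1.30 ± 0.35, adjusted p = 0.0143), the activator Psme3 (1.22 ± 0.33, 0.0161) and Psmb6 (0.88 ± 0.28, 0.0301) were higher with edgeR, and the activator Psme4 lower (-1.18 ± 0.26, 0.00626). Of 8 proteases and ligases of the class II route, 2 were called higher and 2 lower, 50% in all and near the background. The lysosomal protease Ctsd (3.04 ± 0.52, adjusted p = 0.00231) and Ctsb (1.29 ± 0.43, 0.0349) were higher, while Ctsl (-1.72 ± 0.57, 0.0327) and March1 (-3.61 ± 0.94, 0.0133), a ligase that removes class II from the surface, were lower with edgeR. Of 7 subunits of the complex that binds class II promoters, 2 were called higher and 1 lower, 42.9% in all and again near it: the Y box factors Nfya (0.81 ± 0.24, adjusted p = 0.0229) and Nfyc (0.67 ± 0.21, 0.0296) were higher and Nfyb (-0.80 ± 0.25, 0.0259) lower with edgeR. Rfx5, Rfxank and Rfxap, the X box factors, differed by 0.03, 0.34 and -0.31, did not pass, and are named with their values seen.

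Of 11 interferon gamma signalling genes tested, 2 were called lower (18.2%, against 24.7% of all genes) and 0 higher. The receptor chain Ifngr1 stood at 14.8 to 29.6 CPM under GNA11 Q209L Bap1 KO, and at 83.2 to 127 CPM in BRAF V600E Bap1 KO (-2.03 ± 0.40, adjusted p = 0.00421 with edgeR). Irf1, a factor that binds the interferon element, differed by -1.41 ± 0.42 (adjusted p = 0.0228 with edgeR). Ifng itself had too few counts to be tested. It reached 1.91 CPM in BRAF V600E Bap1 KO replicate 2 and stayed at or below 0.131 CPM in the other 10 libraries. Of 31 class I members tested, 11 were highest over all libraries in that replicate. Another 11 were highest in GNA11 Q209L replicate 1, where Ifng stood at 0.131 CPM. Any part of Ifng in these levels was not tested. Of 10 other class I route genes, 1 was called higher and 1 lower (20% in all, against 41.2% of all genes): Uggt1, which checks glycoprotein folding (0.62 ± 0.19, adjusted p = 0.0235), and Cd1d1, which presents lipids (-2.15 ± 0.54, 0.0117), both with edgeR. None of the 5 lists had a gene called for GNA11 Q209L Bap1 KO set against GNA11 Q209L alone, where the smallest adjusted p-values were those of Ifngr1 (-1.78 ± 0.47, adjusted p = 0.230) and the peptide-trimming Lnpep (2.19 ± 0.61, adjusted p = 0.249) with edgeR.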

How the data were processed

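Bulk RNA sequencing of 11 mouse skin tumour libraries was analysed from the deposited gene table. It holds estimated counts made by the authors, as whole numbers, so rounding changed nothing. STAR and mm9 are named per the submitters' processing notes, while for the counting program, annotation and strand setting nothing is stated in these sources. Groups came from the library labels. Counts were scaled by TMM and tested with edgeR 4.0.16 (limma 3.58.1, R 4.3.3), quasi-likelihood, two-sided, over all 11 libraries with genotype as the only term. filterByExpr kept 17350 genes, 44 of them members, and p-values were adjusted over these by Benjamini-Hochberg at 0.05. DESeq2 1.42.0, other scalings, no filter, 2 genotypes alone, summing the libraries that share an identifier and leaving out each library were the alternatives. Leaving out the BRAF V600E Bap1 KO libraries of NA status was chosen after seeing the data. The script was tested on simulated data. Exon lengths and shared 50-base words came from GENCODE M21. Values per library are given for the members that define each step and for those called in any comparison, and other pathway genes by smallest p-value in their list. Members and lists were chosen with earlier results of these data known.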

Additional observations from a re-analysis of the deposited data

Results flagged for a closer look

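In 9 of 58 gene and genotype groups tested (15.5%), 1 library stood far from the others of its genotype relative to the group's range. For normally distributed values chance does this in about 1 in 20 groups, but that rate is no fair measure here. The values were CPM without a log, the genes are not independent of each other, and those tested include every member called in any comparison. Some of these calls themselves rested on BRAF V600E Bap1 KO replicate 2. BRAF V600E Bap1 KO replicate 2 was the high library in 7 of the 9, with B2m at 2385 CPM, H2-D1 at 1376 CPM, Psmb8 at 118 CPM, H2-M3 at 42.6 CPM, H2-Q5 at 46.6 CPM, H2-Q6 at 236 CPM and H2-Q7 at 202 CPM. GNA11 Q209L Bap1 KO replicate 2 stood high in Psmb10 at 93.7 CPM, and replicate 1 of that genotype stood low in H2-Q6 at 6.35 CPM.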

How the results depend on the processing

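For GNA11 Q209L Bap1 KO against GNA11 Q209L, 5 genes were called, and 0 to 13 when single libraries were left out, 439 with DESeq2, 3 with DESeq2 size factors, 3 without a filter, 64 with the 2 genotypes alone and 0 with the libraries sharing an identifier summed. No member was called under these alternatives. Against BRAF V600E Bap1 KO, 7146 genes and 16 members were called, and 3571 and 4 without the libraries of NA status. Members called there ran from 7 to 20 when single libraries were left out and came to 9 with the shared identifier summed. For GNA11 Q209L against BRAF V600E Bap1 KO, 2637 genes and 2 members were called, with 265 to 2867 genes and 0 to 8 members when single libraries were left out, 5423 and 8 with DESeq2, 417 and 0 with the 2 genotypes alone, and 838 genes without the libraries of NA status. Of the called genes in that comparison 61.0% were higher, 42.9% with DESeq2 and 83.0% with the 2 genotypes alone.

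Log2 fold changes turned direction when single libraries were left out. Against GNA11 Q209L the ranges were -1.53 to 0.27 for H2-D1, -0.49 to 0.09 for Tap1, -0.22 to 0.07 for Tap2, -0.86 to 0.66 for Nlrc5, -2.51 to 1.29 for H2-Aa, -2.05 to 1.11 for H2-Ab1, -2.32 to 1.47 for H2-Eb1, -2.30 to 1.48 for Cd74, -1.39 to 0.73 for H2-DMa and -2.36 to 1.67 for Ciita. They were -0.75 to 0.38 for H2-M5, -1.23 to 1.61 for H2-Q6, -1.21 to 0.28 for Erap1, -2.09 to 1.33 for H2-DMb2, -2.38 to 2.46 for H2-Ob, -0.65 to 2.04 for H2-Q5, -0.22 to 1.73 for H2-Q7 and -0.17 to 0.20 for H2-Ke2. Against BRAF V600E Bap1 KO they were -0.30 to 0.62 for H2-T23, -0.42 to 0.57 for H2-K1, -0.99 to 0.78 for Psmb8 and -0.83 to 0.37 for Tap1, and 1.02, 0.89, 0.98 and 0.67 without the libraries of NA status. The cause was not tested. No paired analysis was possible because the labels give no replicate numbers that groups share. With 2 GNA11 Q209L libraries, and 3 to 12 counts of H2-DMb2 per GNA11 Q209L Bap1 KO library, small differences were not detectable at this depth.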
